A study of Homo sapiens with 8 samples.

Results

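The genes described here encode proteins of the epithelial cell surface and of the junction beneath it: the cadherins CDH1, CDH3 and CDH17, the catenins CTNNA1, CTNND1 and JUP, the carcinoembryonic antigen family members CEACAM1, CEACAM5 and CEACAM6, and EPCAM. They were chosen by symbol, as host proteins that bind the bacterium Fusobacterium nucleatum or are related to such proteins. They are 10 of the 19475 entries of the expression table. Their N6-methyladenosine (m6A) peaks formed 10 of 22001 regions.

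HCT116, an epithelial line grown from a human colorectal carcinoma, was given PBS (Control) or F. nucleatum at 100 bacteria per cell for 2 h. Each treatment had 2 biological replicates, and the sources name no genetic change to the line in any sample. In m6A-seq, fragments of poly(A) RNA are pulled down with an m6A antibody (IP) and sequenced beside unselected fragments (input). Input and IP under each treatment made 4 groups of 2 libraries, 8 samples in all, and the comparison asked whether the bacterium changed mRNA levels or m6A.

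Classical cadherins join neighbouring cells through their extracellular parts. Inside the cell they hold beta-catenin or plakoglobin (JUP), which bind alpha-catenin (CTNNA1) and through it actin, while p120-catenin (CTNND1) keeps the cadherin at the surface. CEACAM1, CEACAM5, CEACAM6 and EPCAM are surface glycoproteins found in intestinal epithelium, and CEACAM5, CEACAM6 and EPCAM are high in many colorectal tumours. Of the adhesins of F. nucleatum, FadA is known to bind E-cadherin (CDH1) and CbpF to bind CEACAM1.

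m6A is written mostly at a short motif, GGAC or more widely DRACH (D is A, G or T, R is A or G, H is A, C or T). For the regions on which the results below turn, 1 stretch of 25 bases around a DRACH match is given. It is the match nearest the middle of the bases common to the lists that held the region, with GGAC preferred. The motif is in capitals, every stretch is on the plus strand of GRCh37 (hg19), and the letters stand for DNA, 5′ to 3′.
CDH1 region 1, last exon, coding sequence, chr16:68867314-68867338: acaaagaccaGGACTatgactactt
CDH1 region 2, last exon, 3′UTR, chr16:68868689-68868713: atatactccaGGACTtagaatagtg
CDH3 region 2, last exon, 3′UTR, chr16:68732315-68732339: gcagggctggGGACCaaacgtcagg
CTNNA1 region 1, 5′UTR, chr5:138089116-138089140: cctcctagccGGACTggagggagac
CTNNA1 region 2, last exon, coding sequence, chr5:138269683-138269707: gatgagacacAGACCaagattaaac
CTNND1 region 2, exon 6, coding sequence, chr11:57564418-57564442: actgcccgtcGGACTgggacaccct
CTNND1 region 3, last exon, 3′UTR, chr11:57583857-57583881: tttcttcgctGGACTattgtgccaa
EPCAM region 1, last exon, 3′UTR, chr2:47613784-47613808: aatagcaaatGGACAcaaattacaa
In CDH1 region 1 the A of the motif lay 76 bases before the end of the stop codon, whereas in CDH3 region 2 and EPCAM region 1 it lay 24 and 44 bases past it. A match shows where these letters stand and is not a measured methylation site.

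The input libraries differed in relative depth, most within the F. nucleatum group, where replicate 2 had 0.738 times the depth of replicate 1. Relative to Control 1, Control 2 had 1.12 times the depth, F. nucleatum 1 had 1.24 times and F. nucleatum 2 had 0.905 times, while neither the absolute depth nor that of any IP library could be had from the files. A value above 0 was given for 14566 to 14816 genes per library. Of 10 colorectal epithelial markers, 7 reached a mean of 1 FPKM, with a summed level of 4357 to 5120 FPKM carried by keratins, whereas VIL1, CDX1 and LGALS4 were at or near 0. The summed level of 8 leukocyte markers was 7.497 to 9.446 FPKM and that of 8 fibroblast markers 3.822 to 5.852 FPKM, nearly all from CD68 and COL1A1. The sum of 6 endothelial markers was 0.1459 to 0.2377 FPKM, and PTPRC and PECAM1 were at or near 0. The 7 epithelial markers tested had a median log2 fold change of -0.025, and both F. nucleatum libraries were above both Controls for 2 and below for 3 of them. Of the 7, ELF3, an epithelial transcription factor, passed the test (16.1 and 16.1 FPKM in Control, 23.9 and 24.8 FPKM after F. nucleatum, limma adjusted p of 0.0265). KRT8, a keratin, went the other way without passing it (2286 and 2279 FPKM in Control, 1941 and 2103 FPKM after F. nucleatum, limma adjusted p of 0.291), as did CDX2, an intestinal transcription factor (3.73 and 3.41 against 2.73 and 2.91 FPKM, limma adjusted p of 0.332).

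The mRNA of the cadherin-catenin complex and of EPCAM was abundant in HCT116 cells, whereas that of the CEACAM genes and CDH17 was not. FPKM counts fragments per length of transcript and per total mapped, so levels may be compared between genes. In each of the 4 libraries the order was EPCAM, CTNNA1, JUP, CDH3, CTNND1, CDH1, CEACAM1. Over the 4 libraries only CTNNA1 (76.4 to 82.8 FPKM) and JUP (71.3 to 81.1 FPKM) overlapped among neighbours of this order, and within each treatment they did not. Levels for all 10 genes are drawn in the plot of FPKM by library.

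**Figure D1:**
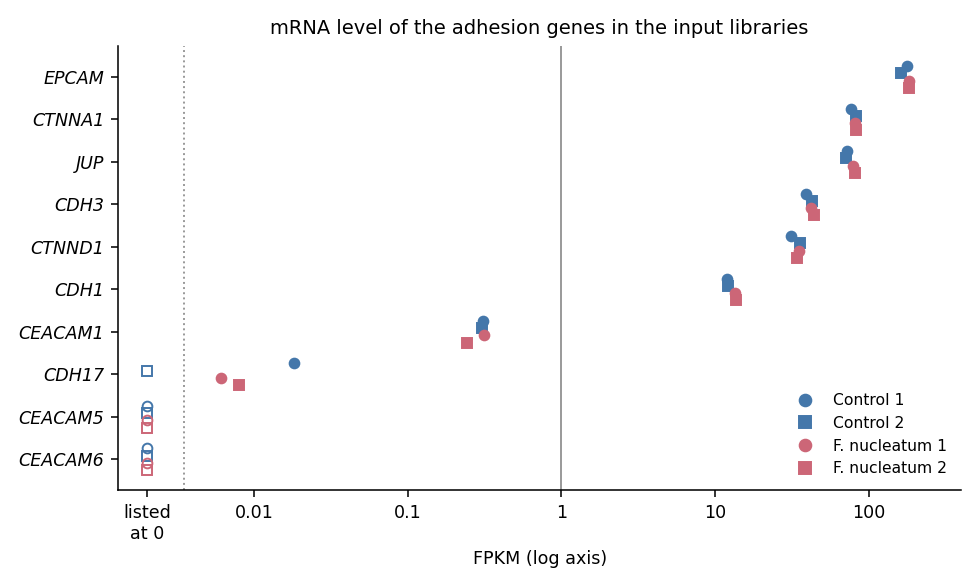
FPKM of the 10 adhesion genes (log axis) in the 4 input libraries, 1 symbol per library, with values listed at 0 as open symbols left of the dotted line and the filter of 1 FPKM as a solid line. The 6 genes right of that line lie between 11.9 and 184.1 FPKM, and Control and F. nucleatum symbols of a gene nearly coincide.

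E-cadherin mRNA (CDH1) measured 11.9 and 12.2 FPKM in Control and 13.4 and 13.6 FPKM in the F. nucleatum libraries, called treated below. Both treated libraries were above both Controls, by a ratio of means of 1.12 (12 ± 0.176 against 13.5 ± 0.143 FPKM, SD, n = 2). The log2 fold change was 0.16 (95% confidence interval -0.01 to 0.32) with a limma adjusted p of 0.389, so the change did not pass the test. A bulk library cannot tell a change in the share of cells with the mRNA from a change in mRNA per cell. CDH1 was the lowest of the abundant members, above 59.3% of the 11088 genes tested.

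P-cadherin (CDH3), a classical cadherin whose gene lies next to CDH1 on chromosome 16, was higher than CDH1. It measured 38.9 and 43.1 FPKM in Control and 42.2 and 44 FPKM in F. nucleatum libraries, and the groups overlapped. Liver-intestine cadherin (CDH17), a cadherin of intestinal epithelium, was listed with 0.0182 and 0 FPKM in Control and 0.00604 and 0.00792 FPKM in treated libraries. These levels were too low for any comparison.

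Among the catenins, plakoglobin (JUP), which serves both adherens junctions and desmosomes, had the narrowest interval for its difference. It measured 72 and 71.3 FPKM in Control and 79.4 and 81.1 FPKM in F. nucleatum libraries, again with both treated libraries above both Controls. Its log2 fold change of 0.16 (95% confidence interval 0.03 to 0.29) had an unadjusted p of 0.0241 and a limma adjusted p of 0.307. Alpha-catenin (CTNNA1), the link to actin, measured 76.4 and 82.8 FPKM in Control and 82.1 and 82.7 FPKM in F. nucleatum libraries. p120-catenin (CTNND1) measured 31.1 and 35.7 FPKM in Control and 35.2 and 34.2 FPKM in F. nucleatum libraries. For both of these genes the treated libraries lay within the range of the Controls.

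EPCAM, the most abundant member, was above 96.9% of the genes tested. It measured 178.2 and 161.8 FPKM in Control and 183.2 and 184.1 FPKM in F. nucleatum libraries. The treated libraries lay above both Controls, with a gap to Control 1 smaller than the gap between the Controls, and the log2 fold change of 0.11 (95% confidence interval -0.05 to 0.27) did not pass the test (limma adjusted p of 0.484).

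CEACAM1, the reported partner of CbpF, was the only one of the 3 CEACAM genes described with a value above 0. It measured 0.308 and 0.305 FPKM in Control and 0.315 and 0.242 FPKM in F. nucleatum libraries, which overlapped and lay below the filter of 1 FPKM. CEACAM5, which encodes the tumour marker CEA, and CEACAM6 were listed at 0 in all 4 libraries. The CEACAM genes of chromosome 19 are close paralogs, so how reads shared between them were assigned bears on these values and was not tested.

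No adhesion member changed in mRNA level at the threshold used. Of the 10 genes, 6 passed the filter of a mean of 1 FPKM, and 0 were called at an adjusted p under 0.05 (limma). Over all genes 0.667% were called higher and 0.135% lower in F. nucleatum libraries. At an unadjusted p under 0.05 it was 1 of the 6 (JUP), where the share over all genes was 13.5%. All 6 log2 fold changes were above 0, from 0.05 for CTNNA1 to 0.16 for CDH1 and JUP, with a median of 0.092, while 54% of all genes tested were above 0 and their median was 0.014. For 3 of the 6 (CDH1, JUP and EPCAM) both F. nucleatum libraries were above both Controls, which held for 26.1% of all genes, and for 0 both were below, which held for 21.1%. The direction for CDH3, CTNNA1 and CTNND1 rested on Control 1, the library lowest for each: without it their log2 fold changes were -1.3e-05, -0.0063 and -0.038. The 6 intervals together spanned -0.15 to 0.32 on the scale of log2(FPKM + 1).

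**Figure D2:**
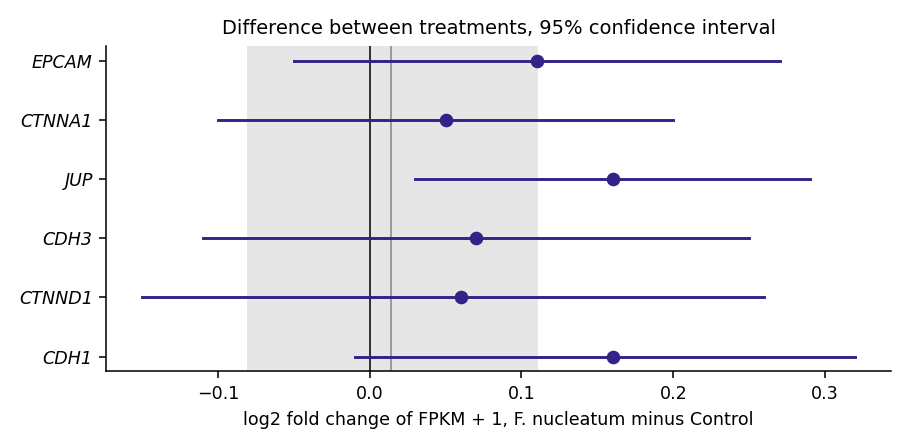
Log2 fold change of FPKM + 1, F. nucleatum minus Control, for the 6 adhesion genes tested, with 95% confidence intervals from limma (n = 2 libraries per treatment). The shaded band spans the quartiles of all 11088 genes tested (-0.08 to 0.11) and the grey line their median (0.014), and the interval of JUP alone lies to the right of 0.

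m6A peaks were called on 5 of the 10 genes. CDH1, CDH3, CTNNA1, CTNND1 and EPCAM had peaks in every list, whereas JUP, CDH17, CEACAM1, CEACAM5 and CEACAM6 had none in any list. Each list compares the IP library with the input of the same replicate, so there are 2 lists per treatment. The Control lists held 10 and 10 peaks on these genes and the F. nucleatum lists 11 and 9, which is 10 ± 0 against 10 ± 1.41 (SD, n = 2, two-sided exact permutation p of 1). The peaks covered 5039 and 5250 bases in Control and 5548 and 5726 bases in F. nucleatum lists. Both treated lists covered more, by 492.5 bases on average, at an exact permutation p of 0.333, the smallest that 2 lists against 2 can give.

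Among the 6 genes that passed the expression filter, 5 had a region with a peak in all 4 lists, and the same held for 67.2% of all genes past that filter, of which 83.9% had a peak in any list. The exception was JUP, although its mRNA was above 91.9% of genes tested. Of 1427 genes within 2-fold of the level of JUP, 263 (18.4%) likewise had no peak. The JUP transcript had 13 GGAC motifs, 3.71 per kb, close to the 3.75 per kb of CTNND1 and 3.95 per kb of CDH1. Its GC content was 61.5%, the highest of the 10 genes. For CEACAM1, 67.6% of genes at a like level had no peak, and of 3780 genes listed at 0 in all libraries 15 (0.397%) had a peak.

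Peaks that touched on the same strand were merged into regions. None of the 10 regions was private to a treatment, that is, called in both lists of one treatment and in neither of the other. Over all regions 2.64% were private to Control and 2.38% to F. nucleatum. Of the 10 regions, 8 were called in all 4 lists (51.5% of all regions), 1 in 3 lists and 1 in a single list (25.6% of all regions). The plot of peaks along the transcripts shows their places in each list, with a CDH3 peak at the start of the transcript in Control 1 alone and a short CTNND1 peak before region 3's main one in F. nucleatum 1 alone.

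Each of the 5 genes had 1 region that held the stop codon in at least 1 list, a place where m6A is known to be dense. Among coding genes with a region in all 4 lists, 67.7% had such a region. Counted by region it was 5 of the 8 found in all lists, against 47.9% of such regions over all genes. The strongest by peak p-value was CDH3 region 2 (chr16:68729724-68732731, exons 15 and 16 of 16), which covered the end of the coding sequence and the start of the 3′UTR. Its p was 1e-106 and 1e-125 in Control and 1e-111 and 1e-116 in the treated lists. The treated values fell between those of the Controls, and the region was stronger than 92.8% of the 11341 regions found in all lists.

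E-cadherin carried its m6A in 2 regions, both in the 3′ part of the transcript. Region 1 (chr16:68862117-68867647, exons 14 to 16 of 16) covered the last coding bases, the stop codon and the start of the 3′UTR, and held 4 GGAC motifs in its 480 common bases. Its p was 2e-46 and 3.2e-55 in Control and 1.6e-99 and 4e-77 in the treated lists. Region 2 (chr16:68868486-68869445) lay wholly in the last exon, towards the end of the 3′UTR, with p of 3.2e-21 and 1.6e-14 in Control and 2e-26 and 5e-23 in the treated lists.

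By the lowest p of each region, both treated lists thus lay below both Controls in both CDH1 regions, and in no other member region found in all lists. That is 2 of 8 regions, where the share over all regions was 15.7%, and 0 of 8 had higher p-values in both treated lists (18.9% of all regions). The median -log10 p over regions found in all lists was 15.5 and 18.2 in Control and 18.3 and 14.6 in the treated lists, and CDH1 mRNA itself was 1.12 times higher in the treated input. The part of list strength, IP depth and mRNA level in these p-values was not tested. In CDH1 region 2 the lowest p was that of the peak nearer the transcript end in both Controls, but of the other peak in F. nucleatum 1. At the peak nearer the end F. nucleatum 1 had a p of 2.5e-17, between the Controls (3.2e-21 and 1.6e-14). At the other peak it had 2e-26 against 1.6e-17 and 7.9e-14 in the Controls. Under a reciprocal overlap of 50%, region 2 broke into pieces, since F. nucleatum 2 had 1 peak of 930 bases where the other lists had 2, and the count was then 1. With a list left out there were fewer lists to order. Without Control 1, 4 of 9 regions had lower and 3 had higher p in the treated lists (24.7% and 40.9% over all regions), and without Control 2 it was 7 and 1 of 8 (40.5% and 28.1%). Without F. nucleatum 1 it was 2 and 0 of 8 (21.4% and 44.2%), and without F. nucleatum 2 it was 4 and 0 of 9 (41.4% and 25%).

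**Figure D3:**
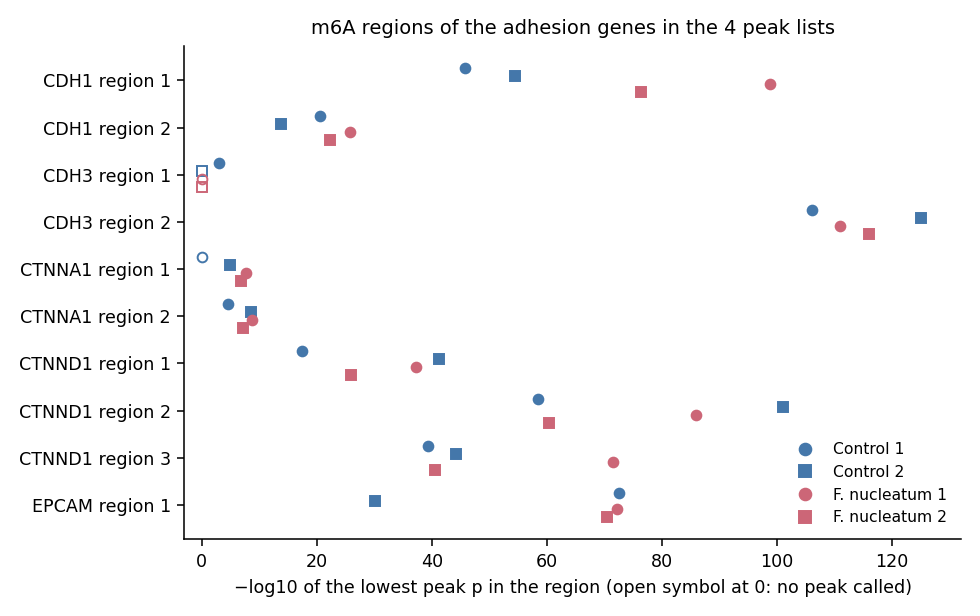
The lowest peak p-value of each of the 10 regions in each list, as -log10 p (higher is stronger), with an open symbol at 0 where no peak was called. The F. nucleatum symbols lie right of both Control symbols in the 2 CDH1 regions, and the treatments are mixed in the other regions found in all lists.

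CTNND1 was the most widely covered gene, with peaks over 36.7% and 39% of its transcript in Control and 40.8% and 40.7% in the treated lists. Its region 1 lay in the 5′UTR (chr11:57529264-57556570, exons 1 and 2 of 21), with p of 3.2e-18 and 5e-42 in Control and 5e-38 and 1.3e-26 in the treated lists. Region 2 lay in the coding sequence (chr11:57559129-57571109, exons 3 to 8), with p of 3.2e-59 and 1e-101 in Control and 1.3e-86 and 4e-61 in the treated lists. In both regions the treated lists lay between the Controls.

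Region 3 of CTNND1 reached from exon 16 over the stop codon into the 3′UTR (chr11:57577630-57584586). Its p was 5e-40 and 6.3e-45 in Control and 3.2e-72 and 3.2e-41 in the treated lists, the last of which fell between the Controls. GGAC motifs stood at 5.86 per kb in the common bases of the 3 regions and at 2.57 per kb in the rest of the transcript. With the regions of a gene pooled, the other genes with peaks did not share this contrast. The densities inside and elsewhere were 4.38 and 3.82 per kb for CDH1 and 6.14 and 5.79 for CDH3. They were lower inside for EPCAM (4.2 and 6.11) and CTNNA1 (0 and 6.06). Single regions of a gene differed, with 8.33 and 1.51 per kb in CDH1 regions 1 and 2. In CTNND1 regions 1, 2 and 3 it was 3.33, 7.02 and 5.21 per kb. Peaks named for the readthrough transcript TMX2-CTNND1 overlapped regions 2 and 3 of CTNND1 in every list, so part of the peak signal there cannot be assigned to CTNND1 alone.

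EPCAM had a single region at the end of its coding sequence (chr2:47606988-47613841, exons 7 to 9 of 9), with 1 GGAC in 238 common bases. Its p was 2.5e-73 and 6.3e-31 in Control and 6.3e-73 and 4e-71 in the treated lists. Control 2 stood apart as the weakest, while Control 1 was the strongest of the 4 by a narrow margin, so the treatments overlapped. The width was 238 bases in both Controls and 267 and 297 bases in the F. nucleatum lists.

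Of the 8 regions of these genes found in all 4 lists, that of CTNNA1 was the weakest in each list, although only EPCAM had more mRNA. Region 2 (chr5:138269614-138269824) lay in the last exon at the stop codon, with p of 2.6e-05 and 3.2e-09 in Control and 2e-09 and 7.1e-08 in the treated lists. It ranked above 25.7% of regions found in all lists. Its 121 common bases held no GGAC and 4 DRACH matches, where 55.9% of regions of like length held a GGAC, as did 76.9% of all regions found in all lists.

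Of the 211 bases of CTNNA1 region 1 (chr5:138089105-138089626), 86 lay in the 5′UTR of the canonical transcript and 125 lay off that transcript. The region was called in 3 lists. It was absent from Control 1, and its p was 1.4e-05 in Control 2 and 2.4e-08 and 1.2e-07 in the F. nucleatum lists. With peaks limited to p of at most 1e-05, Control 2 lost its peak, and the region then counted as private to F. nucleatum. The remaining region, CDH3 region 1 at the start of the transcript (chr16:68679188-68679307), was called only in Control 1 at p of 0.0011.

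To place the 10 genes among their partners, 7 lists of other adhesion genes were examined, with 116 genes of which 68 were tested. In limma 0 of the 68 were called in either direction, while an unadjusted p under 0.05 was reached by 7 higher and 3 lower genes, where the share over all genes was 13.5%. Their median log2 fold change was 0.073, and 49 of 68 were above 0, against a median of 0.014 and 54% above 0 over all genes. Both F. nucleatum libraries were above both Controls in 26 of the 68, where the share over all genes tested was 26.1%. They were below both Controls in 12 of the 68, where that share was 21.1%. The plot of fold changes by list shows where the larger values lay.

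Among 22 tested catenins and adherens junction partners, 15 were above 0 with a median of 0.060. The largest values were those of VCL (vinculin, which ties alpha-catenin to actin), at 47.5 and 54.3 FPKM in Control and 67.3 and 64.3 in the treated libraries (log2 fold change 0.37, limma adjusted p of 0.192), and PTPN1 (a tyrosine phosphatase), at 0.22. Both passed the test without Control 2 (limma adjusted p of 0.022 and 0.0383) but not without Control 1 (0.139 and 0.887), where the log2 fold change of PTPN1 was 0.026, nor without either treated library (0.638 to 0.858). With 1 library left out, its group has a single library, which is assumed to vary like the remaining pair. These calls thus rest on the 2 libraries of the other treatment and on limma's trend of spread over all genes tested. Of the other cadherins 11 of 21 were listed at 0 throughout, and the 2 tested, CDH15 and CDH24, had log2 fold changes of 0.02 and 0.01 that changed sign when libraries were centred on their medians. Of the 9 other CEACAM genes 7 were listed at 0, and the 1 tested, CEACAM19, stood at 0.17 with overlapping groups (0.021 without Control 2, 0.039 without F. nucleatum 1 and 0.31 without Control 1).

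In the desmosome list 6 of 7 tested genes were above 0 with a median of 0.111. The exception was PKP3 (plakophilin 3, a desmosomal plaque protein), at 43.7 and 44.9 FPKM in Control and 33.8 and 34.9 in the treated libraries (log2 fold change -0.36, limma adjusted p of 0.101). DSC3 (desmocollin 3) stood at 0.32 with an adjusted p of 0.377 in limma.

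Tight junction genes and EPCAM partners had the widest range, with 13 of 18 above 0. TJP1 (the scaffold ZO-1) measured 12.5 and 17.1 FPKM in Control and 26.8 and 24.5 in the treated libraries (log2 fold change 0.77, limma adjusted p of 0.143). The log2 fold change of TJP1 was 0.56 without Control 1, 0.98 without Control 2, 0.71 without F. nucleatum 1 and 0.83 without F. nucleatum 2. Here too each such fit takes its spread from 2 libraries of the other treatment and from limma's trend over all genes tested. F11R (JAM-A, a junctional adhesion molecule) stood at 18.4 FPKM in Control 1 but 7.16 in Control 2, against 5.7 and 6.22 in the treated libraries, so that 1 library made its log2 fold change of -0.86 (limma adjusted p of 0.404). Without Control 1 it was -0.23 (0.396), and without Control 2 it was -1.48 (limma adjusted p of 0.00246). The lowest adjusted p of all lists, 0.0973 in limma, was that of CLDN4 (claudin 4), named here after its values were seen, with 118.1 and 134.3 FPKM in Control and 173 and 174.4 in the treated libraries.

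Of the E-cadherin repressors and mesenchymal genes 4 of 10 were tested. FN1 (fibronectin) stood at 0.28 with overlapping groups (0.014 without Control 1 and 0.55 without Control 2), and TCF3 (the repressor E2A) at -0.18 with 22.8 and 22.3 FPKM in Control and 19.6 and 20 in the treated libraries (limma adjusted p of 0.33). All 14 genes of shedding and endocytosis were tested, and 10 were above 0. MMP7 (matrilysin, which can cleave E-cadherin) had a log2 fold change of -0.41 at levels of 0.738 to 1.69 FPKM (limma adjusted p of 0.36). MMP7 passed the filter, at a mean of 1.06 FPKM, only through the Controls (mean of 1.35 against 0.76 FPKM after F. nucleatum). Its direction is thus tied to how it entered the test. APH1A (a gamma-secretase subunit) had a log2 fold change of 0.39 that rested on F. nucleatum 2 at 29.1 FPKM, since it was -0.14 without that library.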

How the data were processed

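The 10 genes and the gene lists were chosen with earlier results of these data known. Groups and replicate numbers came from the sample labels, and treatment time and dose from the methods of the study. The labels name Trim Galore 0.3.3, HISAT2 2.1.0, StringTie and hg19. The deposited FPKM values were computed by the authors with StringTie from the 4 input libraries, and the deposited peak lists, 1 per replicate, gave exon blocks, a gene name and a score from 0 to 0.012 taken here as the authors' uncorrected p-value. The methods name MACS2, whereas exon blocks are a layout of exomePeak, so the caller was not settled. No counts were given, so the DESeq2 model of the study could not be used, and depth allowed no counting interval.

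Here log2(FPKM + 1), a scale that understates changes of low genes, was tested with limma 3.58.1 (eBayes with trend, no covariate, R 4.3.3) for 11088 genes (those whose mean reached 1 FPKM), with Benjamini-Hochberg adjustment over all of them and a threshold of 0.05. The fit was tested on simulated data. Totals per list were compared by two-sided exact permutation. Limma p-values rest on the spread between 2 samples per group, moderated by the trend of spread over all genes tested. Peak p-values compare IP with input within a replicate and hold no spread between replicates. Peaks that touched by 1 base in their exon blocks on the same strand were merged, and a region's p in a list is the lowest of its peaks named for the gene. Coordinates are 1-based, on GRCh37 with GENCODE release 44 lifted to it. Motifs were counted on the transcript strand only, GGAC matches before A, C or T being DRACH matches as well, and background shares are over the 11070 regions with bases common to all 4 lists, or those within 1.25-fold of a region's length. Relative depth was the most frequent ratio among low genes of a pair of libraries, shared by 6 to 12 of 261 to 329 genes. Strand-specific counting is not given in the sources used here, and CDH1, CDH3, CTNNA1 and CEACAM1 share exon bases with antisense genes. Of each list, genes past the threshold and the 2 with the largest absolute log2 fold change were named, and of each gene every region. Alternatives were the pseudocount, the filter, the trend, quantile and median scaling, GC correction, the replicate block, a stricter peak p, reciprocal overlap, peaks taken by position, and each library left out. A single region of the other adhesion lists is not reported here.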

Additional observations from a re-analysis of the deposited data

How the results depend on the processing

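All 13 alternatives for expression called 0 of the described genes in either direction. Fold changes of CDH1 (0.13 to 0.17), JUP (0.14 to 0.20) and EPCAM (0.043 to 0.18) kept their sign under all of them. With 1 library left out, the log2 fold change ranged from -1.31e-05 to 0.145 for CDH3, -0.00634 to 0.107 for CTNNA1, -0.0379 to 0.152 for CTNND1 and -0.117 to 0.151 for CDH15 (the lowest each without Control 1), -0.0176 to 0.0393 for CDH24 (lowest without F. nucleatum 1), and -0.138 to 0.911 for APH1A (lowest without F. nucleatum 2). That of CDH15 was -0.0442 under quantile normalization and -0.00748 under median centring, and that of CDH24 was -0.0132 and -0.0137. Listed adhesion genes called higher ranged from 0 to 4 with 1 library left out (CLDN4, PARD6B and TJP1 without Control 1, and CLDN4, PTPN1, TJP1 and VCL without Control 2), and those called lower from 0 to 1 (F11R without Control 2).

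Regions private to Control, and those private to F. nucleatum, ranged from 0 to 1 with a list left out, and 1 region (CTNNA1 region 1) was private to F. nucleatum at p of at most 1e-05. Regions with lower p in both F. nucleatum lists ranged from 2 to 7 and those with higher p from 0 to 3 with a list left out, as fewer lists had to be ordered, and the former numbered 1 under a reciprocal overlap of 50%. The gain in covered bases was 673 at the stricter p, 687.5 with peaks taken by position, and 387 to 598 with a list left out.

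Replicate numbers were not shown to pair the libraries (correlation of deviations 0.0243 over 11088 genes). The replicate block called 0 of the described and 0 of the listed genes, and within numbers 1 and 2 the difference in peaks was 1 and -1 and that in covered bases 509 and 476. With 2 libraries per treatment and unknown IP depth, small differences in level or in m6A were not detectable, and a region without a call has no value.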

Other observations

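Of the 116 genes in the 7 other adhesion lists, 65 had an m6A peak in at least 1 list, a count that includes genes below the expression filter. Of the 116, 68 passed that filter and 22 were listed at 0 in all 4 libraries. The 83.9% of genes past the filter with a peak is therefore no share to set beside 65 of 116. Of the 68 tested genes, 51 had a region in all 4 peak lists, where the share over all genes tested was 67.2%. The 116 genes carried 145 regions, of which 80 were called in all 4 peak lists (51.5% over all regions). A further 4 were called only in both Control lists and 3 only in both F. nucleatum lists (2.64% and 2.38% over all regions). Of the Control regions, 3 are given here. They lay in the coding sequence of PTPRF, a receptor tyrosine phosphatase (chr1:44071262-44072089, exons 19 and 20 of 34, p of 0.0022 and 7.9e-12), and at the 5′UTR of MMP14, a membrane metalloproteinase (chr14:23305772-23305892, p of 0.0038 and 0.0032), and of the desmoglein DSG2 (chr18:29078117-29078177, p of 0.0063 and 0.00035). The F. nucleatum regions all lay in the 3′UTR, in AFDN (afadin, which links nectins to actin; chr6:168372430-168372670, p of 0.00087 and 8.1e-09), SSX2IP (chr1:85110379-85110469, p of 0.0046 and 0.0016) and DSC3 (chr18:28573435-28573734, p of 2.2e-05 and 0.0002). DSC3 mRNA was 1.48 and 0.991 FPKM in Control and 1.75 and 1.8 FPKM in F. nucleatum input libraries, and the part of this level in the peak calls was not tested. None of the genes named passed the test of expression.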
